A study of Mus musculus with 27 samples.

Results

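The level of each transcript in the uterus of F1 hybrid mice was compared with the middle of the levels in their parents, C57BL/6 (B6) and C3H/HeJ (C3H), in animals given no estrogen. The comparison rests on the 9 vehicle arrays of a series of 27: 3 F1, 3 B6 and 3 C3H. All animals were females of 8 weeks whose ovaries had been removed, and these groups received an injection of ethanol and saline. The other 18 arrays came from the same kinds of mice 2 h or 24 h after 17β-estradiol (E2, 40 µg per kg) and are used here for the spread between arrays and as separate samples. The labels describe tissue of 3 animals per treatment group and do not say that each array is a different animal, so the p-values measure the spread between these samples, which may be technical. Neither the time of collection of the vehicle samples nor the maternal strain of the F1 mice is stated.

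An F1 animal carries a single copy of each parent's genome. A gene whose copies are each read out as in their own strain, without influence from the other, is called additive, and the hybrid then lies midway between the parents. A gene is called dominant when the hybrid resembles a single parent, and transgressive when it lies outside both. Since equal dosage averages amounts of RNA, the expected midpoint is that of linear levels, whereas array data are commonly analysed as logarithms, whose midpoint is lower. Both midpoints are given below. In whole tissue, fewer cells of a type and less RNA per cell cannot be told apart.

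The measurements are those of single 60-base probes, and 8 of them are printed because results below turn on them, with positions in mouse build mm7 as the array's own annotation gives them. The Thumpd1 probes lie at chr7:115637748-115637807 and chr7:115640635-115640694 on the minus strand, and the Ptprg probes at chr14:10056435-10056494 and chr14:10052992-10053613 on the plus strand. For both genes the first probe differed widely between the parents and the second did not. The Ifi44l probes lie at chr3:151659258-151659314 and chr3:151659730-151659789 on the minus strand and gave the same order of the groups. The Add2 probe (chr6:86199334-86199393, plus strand) carries the largest distance from the mid-parent among the named genes above both parents, and the Slfn5 probe (chr11:83043722-83043781, plus strand) a level below both. The place of each probe within its transcript is not given in the sources used here.
Thumpd1 first probe: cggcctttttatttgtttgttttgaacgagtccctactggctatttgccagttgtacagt
Thumpd1 second probe: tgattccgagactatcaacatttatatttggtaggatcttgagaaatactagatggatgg
Ptprg first probe: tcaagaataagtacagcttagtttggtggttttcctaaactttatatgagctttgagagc
Ptprg second probe: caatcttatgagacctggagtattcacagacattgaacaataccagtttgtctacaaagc
Ifi44l first probe: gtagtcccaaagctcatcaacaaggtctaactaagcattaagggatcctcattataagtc
Ifi44l second probe: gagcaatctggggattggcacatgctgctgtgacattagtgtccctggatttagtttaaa
Add2 probe: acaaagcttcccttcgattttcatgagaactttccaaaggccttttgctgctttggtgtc
Slfn5 probe: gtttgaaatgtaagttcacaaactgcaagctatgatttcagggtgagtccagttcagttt

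Levels are log2 of the processed signal minus log2 of the array's 75th percentile, so that a level of 0 equals that percentile, and a linear level is a fraction of it. Replicate vehicle arrays correlated at r of 0.988 to 0.996 over genes, and the number of arrays limits the precision. Between 74.6% and 76.7% of spots were well above background on the F1 arrays, against 78.0% to 79.0% on the B6 arrays and 76.2% to 79.8% on the C3H arrays. No slide held vehicle arrays of more than 1 kind of mouse, so slide and strain cannot be told apart. A pair of genes checks the labels, since B6 mice make no H2-Ea transcript and a common B6 substrain has a deletion in Nnt. H2-Ea read -6.03, -5.82 and -5.99 on the F1 arrays, -9.03, -9.09 and -9.07 on the B6 arrays, where it was not well above background, and -5.30, -4.92 and -4.82 on the C3H arrays. Nnt, the mitochondrial transhydrogenase, read 1.29 to 1.40 in F1, 0.71 to 0.75 in B6 and 1.71 to 1.79 in C3H. Both genes placed the F1 arrays between the parents without overlap. Summed levels of 11 endothelial markers (40.8 to 43.7 in F1, 42.9 to 45.4 in B6, 41.8 to 43.6 in C3H) and 12 stromal markers (512 to 520 in F1, 450 to 478 in B6, 535 to 560 in C3H) were high on every array. The endothelial sums of F1 overlapped those of both parents, whereas the stromal sums of the 3 groups did not overlap, and 6 of the 12 stromal markers were higher in C3H than in B6. Smooth muscle markers summed to 503 to 552 in F1, 497 to 565 in B6 and 630 to 678 in C3H, and 8 of 10 were higher in C3H than in B6. No stromal or smooth muscle marker was called off the log2 mid-parent. B6 replicate 1 stood apart, with T and NK cell markers summing to 10.4 against 2.28 to 4.30 on the other 8 vehicle arrays, and macrophage markers to 183 against 71.3 to 111.

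Of 21866 genes measured, 314 (1.44%) were higher and 863 (3.95%) lower in F1 than the mid-parent of log2 levels at an adjusted p under 0.05 (limma, Benjamini-Hochberg over all genes). Against the mid-parent of linear levels, 92 (0.421%) were higher and 948 (4.34%) lower. The higher calls depended most on the scale: 221 were called on the log2 scale alone and none on the linear scale alone. Of the lower calls, 848 were shared, 15 were made on the log2 scale alone and 99 on the linear scale alone, and 1 gene was called with opposite signs. The parents themselves differed in more genes, with 2909 (13.3%) higher and 2406 (11.0%) lower in C3H than in B6. Leaving out a single F1 array cut the log2 counts to 204 higher and 326 lower (replicate 1), 168 and 406 (replicate 2) or 198 and 509 (replicate 3). On the linear scale those counts were 36 and 330, 28 and 476, and 37 and 548, and without C3H replicates 1, 2 and 3 the higher calls numbered 58, 53 and 40.

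The excess of lower calls lay among dim probes and changed with the treatment of background. Genes with a mean level under -6 had a median F1 minus mid-parent of -0.32, with 21 called higher and 223 lower of 2310. Genes between -6 and -4 had a median of -0.14, with 48 higher and 360 lower of 3617. Among genes at 2 or more, the median was 0.01, with 30 higher and 6 lower of 3474. Thus 6 of the 863 lower calls came from the brightest genes. When background was corrected by normexp with bright local backgrounds reset, the medians of all 6 level bins lay between -0.01 and 0.01, and 174 genes (0.796%) were called higher and 186 (0.851%) lower. That correction also adds a fixed offset to every signal, which shrinks the log2 differences of dim probes by construction. Medians near 0 and fewer calls in the dim bins therefore follow in part from the offset. The share of calls that were higher was 26.7% as first scaled, 11.2% without scaling, 36.4% with median centring, 45.1% with quantile normalization (402 genes, 1.84%, higher and 490, 2.24%, lower), 41.5% with cyclic loess and 48.3% with that normexp. Without F1 replicate 1 it was 38.5%.

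**Figure D1:**
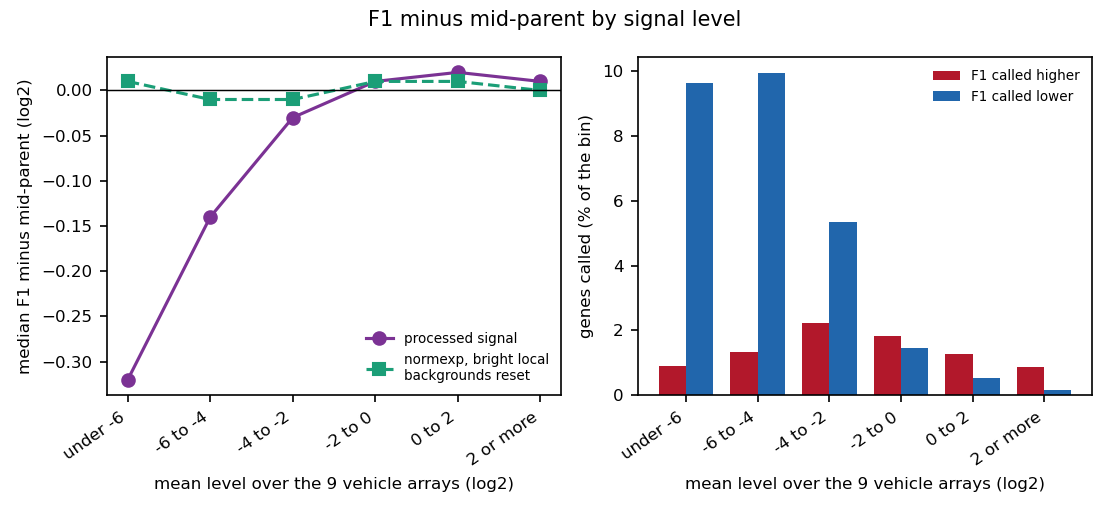
Left, the median of F1 minus log2 mid-parent (log2) over the genes of each bin of mean vehicle level (log2), for the processed signal and for normexp with bright local backgrounds reset; right, the percentage of each bin called higher or lower on the processed signal. The median falls to -0.32 in the dimmest bin on the processed signal and stays within 0.01 of 0 after normexp, and lower calls reach 9.95% of the bin from -6 to -4. Normexp adds a fixed offset that shrinks the differences of dim probes.

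Genes were then classed from 4 contrasts: F1 against the mid-parent, F1 against B6, F1 against C3H, and C3H against B6. F1 was higher than B6 in 1162 genes (5.31%) and lower in 1586 (7.25%), and higher than C3H in 1168 (5.34%) and lower in 1958 (8.95%). Most genes on which the parents differed were additive, meaning that F1 lay between them and was not called off the log2 mid-parent: there were 4400, and in 293 of these the 95% interval was narrow enough to keep F1 within the middle part of the parental range. A further 165 genes were partly dominant, 111 were dominant and B6-like, and 178 were dominant and C3H-like. F1 lay above both parents in 19 genes and below both in 327. In another 377 genes F1 was off the mid-parent while the parents were not called different, 442 genes with differing parents met no class, and 15847 met none of these conditions. Without a single F1 array the partly dominant class held 96 to 104 genes, and without F1 replicate 2 or 3 the firm additive one held 186. The classes are descriptions of which contrasts passed the threshold, and a contrast that did not pass does not show equality. They follow the log2 mid-parent and not the linear one that equal dosage predicts. Of the 4400 additive genes, 63 were called off the linear mid-parent, and a gene at the linear mid-parent can be classed dominant.

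**Figure D2:**
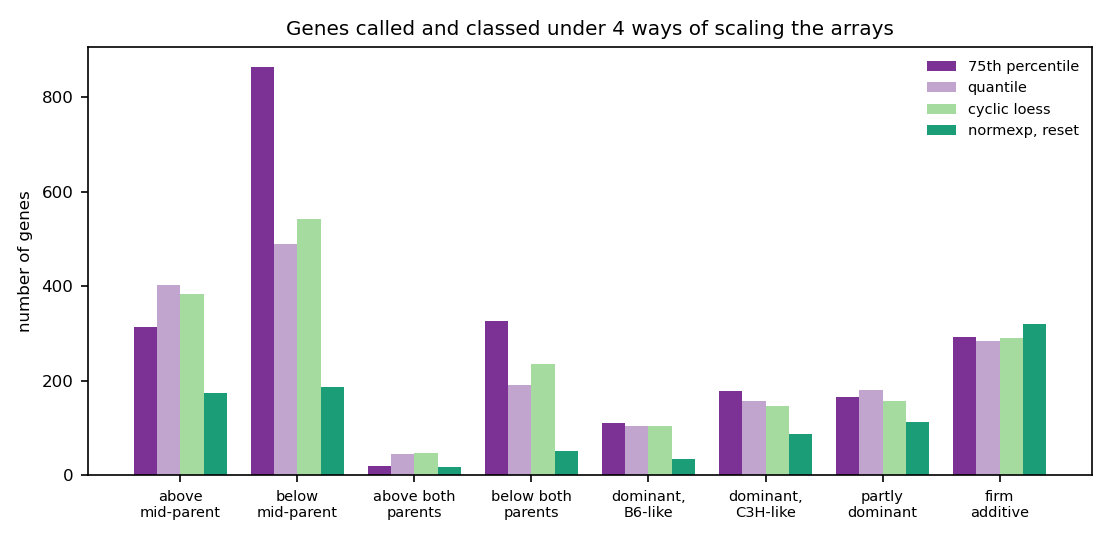
Number of genes (vertical axis) called above or below the log2 mid-parent and placed in 6 classes, under 4 ways of scaling the vehicle arrays (bar colours). Genes below both parents number 327 with 75th percentile scaling and 51 after normexp with bright backgrounds reset, while the firm additive class differs least.

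Genes above both parents were few and mostly well above background. Of the 19, 18 were well above background on all 9 vehicle arrays, as were 19514 of all 21866 genes. In 16 of the 19 every F1 array lay above every parent array, which the definition of the class makes likely. Among all genes, 1841 had every F1 array above or below every parent array. After normexp with bright backgrounds reset, 14 of the 19 were still called above the log2 mid-parent. The class held 9 genes without B6 replicate 1 and 11 without C3H replicate 2. It also held 44 with quantile normalization and 47 with cyclic loess.

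Add2, which encodes beta-adducin of the membrane skeleton, stood farthest from the mid-parent among the 8 named genes above both parents. Its level was -3.08, -3.05 and -2.80 on the F1 arrays, -4.07, -3.96 and -3.37 on the B6 arrays and -5.56, -5.68 and -5.52 on the C3H arrays. All F1 arrays lay above all B6 arrays, which in turn lay above all C3H arrays. F1 was 1.72 ± 0.17 (SE) above the log2 mid-parent (limma adjusted p = 3.77e-06) and 1.46 ± 0.18 above the linear one (adjusted p = 0.000144). The other 3 Add2 probes were not well above background on any C3H array and give no exact distance. Of these, 2 were well above it on all F1 arrays and had means of -6.07 and -4.78 in F1, against -6.65 and -5.45 in B6.

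Baiap2l1, an actin-bundling membrane adaptor, read -2.37, -1.69 and -0.08 on the F1 arrays, -2.91, -2.37 and -2.55 on the B6 arrays and -2.93, -2.77 and -2.88 on the C3H arrays. The lowest F1 array was level with the highest B6 array to 2 decimals, and F1 replicate 3 was far above the rest. Its distance of 1.36 ± 0.32 (adjusted p = 0.015) became 0.71 without F1 replicate 3 (adjusted p = 0.104), and the call was also lost when the 9 vehicle arrays alone gave the spread (adjusted p = 0.132). Its second probe gave +1.63.

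Slc46a2, a solute carrier first described in thymic stroma, read -3.34, -3.25 and -3.06 in F1, -4.09, -3.93 and -3.80 in B6 and -4.25, -3.97 and -4.19 in C3H. F1 did not overlap either parent and was 0.83 ± 0.12 above the log2 mid-parent (adjusted p = 0.000494). Abca4, a lipid flippase known from photoreceptors, was 0.66 ± 0.18 above it (adjusted p = 0.0355) and lost the call in 7 of the 9 analyses that left out an array (lowest value 0.58, adjusted p = 0.174, without F1 replicate 2). Mirg, a maternally expressed noncoding RNA of the imprinted Dlk1-Dio3 region, was 0.58 ± 0.13 above it (adjusted p = 0.00921). The other named genes rose by less: Adhfe1, a mitochondrial transhydrogenase, by 0.37, Peli3, an E3 ubiquitin ligase, by 0.33, and Hoxb6, a homeobox factor, by 0.34. Hoxb6 read 2.44, 2.68 and 2.57 in F1, 2.18, 2.20 and 2.36 in B6 and 2.22, 2.20 and 2.19 in C3H, so that the F1 arrays lay above all others by a small margin. Its second probe showed +0.07. Without F1 replicate 2, Hoxb6 had 0.28 (adjusted p = 0.0806), Peli3 0.29 (0.124) and Mirg 0.51 (0.0743), and without F1 replicate 1 Adhfe1 had 0.30 (0.0672) and Mirg 0.57 (0.052). Peli3 also lost the call without F1 replicate 3 (0.32, adjusted p = 0.0727). Without scaling, Abca4, Adhfe1, Peli3 and Hoxb6 were not called (adjusted p of 0.0605 to 0.0908), nor were Adhfe1 and Hoxb6 when a gene's probes were averaged (0.237 and 0.0597).

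Genes below both parents were mostly dim. Of the 327, whose median level was -5.22, 208 were well above background on all 9 arrays and 82 were not well above it on any F1 array. Those 82 passed the filter on dim probes through groups other than F1 vehicle. After normexp with bright backgrounds reset, 75 of them were called below the log2 mid-parent, with quantile normalization 264 and with cyclic loess 282. The class itself held 51, 191 and 234 genes under these settings. Olfactory and vomeronasal receptor genes made up 41 of the 327, against 438 of all 21866 genes. The class held 154 genes without F1 replicate 1, 205 without F1 replicate 2 and 212 without B6 replicate 1.

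The 8 named genes farthest below both parents had no F1 array well above background, so that their distances are at most bounds. They were Pnliprp1, a pancreatic lipase-related protein, Tmem63c, Apol10a, the T cell receptor adaptor Trat1, the photoreceptor gene Rp1l1, and the olfactory receptor genes Olfr2, Olfr1349 and Olfr948. Olfr1349 read -7.53, -7.80 and -7.27 in F1, -6.05, -5.92 and -5.57 in B6 and -5.30, -5.33 and -5.32 in C3H. F1 was at least 1.97-fold dimmer than B6 and at least 2.84-fold dimmer than C3H. Each bound sets the parent against the lowest signal well above background on the F1 arrays, or the probe's own signal if higher. The limma tests used the F1 signals as measured (adjusted p = 0.00076 and 4.29e-05) and do not test these bounds. In F1, Pnliprp1 was at least 1.54-fold dimmer than in B6 and at least 1.94-fold dimmer than in C3H. Its limma tests (adjusted p = 0.0199 and 0.00757) likewise used the signals as measured and not the bounds. The bounds against B6 and C3H were 1.72 and 1.89-fold for Trat1 and 1.34 and 1.34-fold for Apol10a. They were near 1 for the rest: 1.06 and 1.41 for Tmem63c, 1.18 and 1.07 for Olfr948, and 1 and 1.52 for Olfr2. For Rp1l1, B6 was not well above background on any array either, so no bound places F1 below both parents. After normexp with bright backgrounds reset, none of the 8 was called, with distances of -0.31 to -0.11 (adjusted p of 0.286 to 0.695). The offset of that correction shrinks log2 differences at such low levels, so this loss is no separate test of these genes. Without F1 replicate 1, Pnliprp1 and Olfr2 lost the call (adjusted p = 0.0662 and 0.0801), as did Olfr2 and Olfr948 without F1 replicate 2 (0.0812 and 0.0923). Olfr948 also lost it when the 9 vehicle arrays alone gave the spread (0.0521).

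A further 8 genes below both parents, chosen after their values were seen, were well above background on all 9 arrays. They also had a mean vehicle level above -4 and every F1 array below every parent array. Among such genes with known symbols they lay farthest from the nearer parent. Slfn5, a Schlafen family member, read -4.92, -4.18 and -4.50 in F1, -2.83, -2.94 and -2.70 in B6 and -3.15, -3.15 and -3.37 in C3H. Every F1 array was lower than every parent array, and F1 was 1.51 below the log2 mid-parent (estimate -1.51 ± 0.14, adjusted p = 1.57e-06). Syn2, which encodes the synaptic vesicle protein synapsin II, read -3.05, -3.02 and -3.20 in F1, -2.39, -2.16 and -1.96 in B6 and -0.52, -0.51 and -0.56 in C3H. F1 was thus nearer to B6 but beyond it, at -1.74 ± 0.19 from the log2 mid-parent (adjusted p = 1.48e-05) and -1.96 from the linear one, and its other probes gave -2.0 and -1.32.

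Ajuba, a LIM-domain scaffold protein, read -0.95, -0.97 and -1.27 in F1, -0.44, 0.03 and -0.08 in B6 and -0.20, -0.12 and -0.25 in C3H. It was the brightest of the 8, and its F1 arrays lay below all parent arrays at -0.89 ± 0.16 (adjusted p = 0.00291). Hrg, a plasma glycoprotein made in liver, fell by 1.21 (adjusted p = 0.00159). Liver markers summed to 2.03 to 2.71 in F1, 8.35 to 32.6 in B6 and 2.35 to 5.34 in C3H, and their part in the Hrg result was not tested. Olfr812, the sperm tail gene Odf4, the lens crystallin Crygd and Dync1li1, a light intermediate chain of dynein, fell by 1.03, 0.93, 1.0 and 0.90. A second Dync1li1 probe showed -0.11. After the normexp variant, 7 of the 8 kept the call, and Crygd did not (-0.55, adjusted p = 0.0633). In the whole class 75 of 327 kept it, and the choice of brighter genes with large differences favours keeping it. Odf4 lost it without F1 replicate 1 or 2 (adjusted p = 0.0598 and 0.0548), and Dync1li1 without F1 replicate 2 or 3 (0.0792 and 0.0772).

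**Figure D3:**
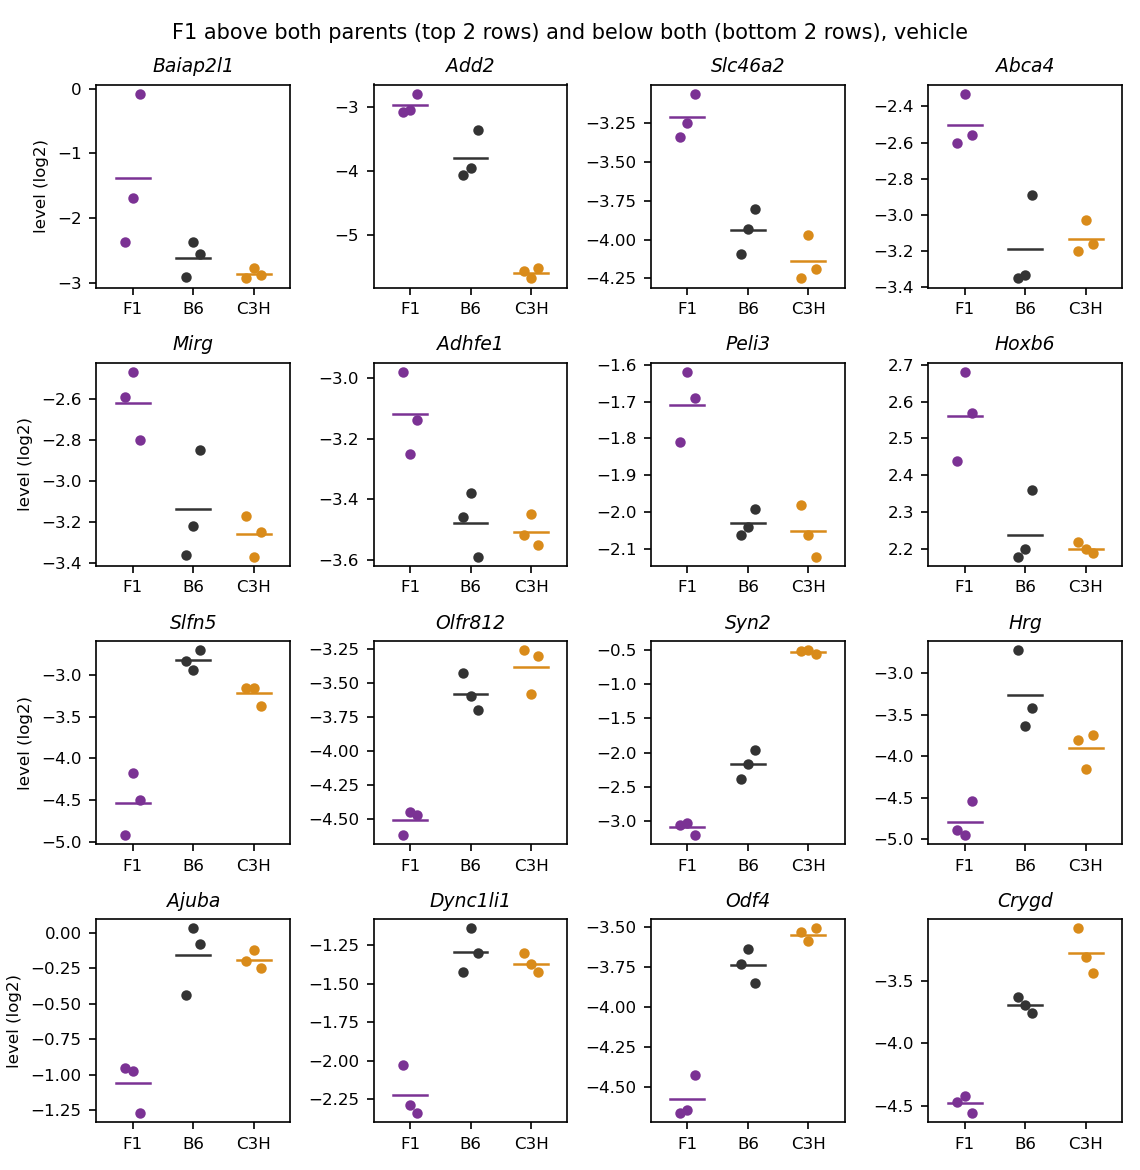
Level (log2, relative to the array's 75th percentile) of 8 genes above both parents (top 2 rows) and 8 below both that were well above background (bottom 2 rows), with 1 point per vehicle array and a line at each group's mean for F1, B6 and C3H. The F1 points lie beyond those of both parents in every panel except that of Baiap2l1, where the lowest F1 point meets the highest B6 point.

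Several genes with very wide parental differences were called above the log2 mid-parent and lay near the linear one. The 6 named genes with the largest log2 distance and no linear call were Ptprg, Thumpd1, Klk1b24, Trim12a, Ifi44l and Zfp874a, at +2.09 to +2.84 from the log2 mid-parent and -0.55 to +0.08 from the linear one. Thumpd1, an adaptor of tRNA acetylation, read 1.10, 1.03 and 1.02 in F1, 2.02, 2.03 and 2.03 in B6 and -3.21, -5.25 and -7.15 in C3H. The F1 arrays lay about 1 log2 unit below B6, and C3H ranged over nearly 4 units, with 2 of its 3 arrays well above background. In linear terms F1 averaged 2.07, B6 4.08 and C3H 0.0271, so that the linear mid-parent was 2.05. F1 was 2.64 ± 0.45 above the log2 mid-parent (adjusted p = 0.0015) and 0.01 from the linear one, with a 95% interval of -1.07 to 1.09. The call was lost when the 9 vehicle arrays alone gave the spread (adjusted p = 0.0756). It was also lost with probes well above background on all vehicle arrays, where the second Thumpd1 probe stood for the gene (0.06, adjusted p = 0.965).

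Ptprg, a receptor-type tyrosine phosphatase, read 0.42, 0.55 and 0.59 in F1, 1.37, 1.47 and 1.47 in B6 and -4.34, -6.23 and -7.60 in C3H. It followed the pattern of Thumpd1: F1 averaged 1.44, B6 2.71 and C3H 0.0150 on the linear scale, against a linear mid-parent of 1.36. The second Ptprg probe averaged -2.78 in F1, -2.47 in B6 and -2.80 in C3H, and the second Thumpd1 probe -1.41 in F1, -1.62 in B6 and -1.31 in C3H. The wide parental difference was thus measured by a single probe of each gene. Zfp874a, a zinc finger gene, averaged 0.512 in F1, 0.953 in B6 and 0.0152 in C3H, against a linear mid-parent of 0.484. Trim12a, of the TRIM5 cluster of antiviral genes, averaged 2.83 in F1, 7.03 in B6 and 0.0366 in C3H, against 3.53, and its B6 replicate 1 (log2 level 3.35) was above the others (log2 levels 2.55 and 2.53). A second Trim12a probe lay 0.85 above the log2 mid-parent.

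Ifi44l, an interferon-induced gene, had C3H as the high parent. It read -0.80, -0.70 and -0.82 in F1, -6.49, -6.32 and -6.10 in B6 and 0.57, 0.30 and 0.34 in C3H. F1 averaged 0.586, B6 0.0127 and C3H 1.32 on the linear scale, against a linear mid-parent of 0.667, and the distance from it was -0.19 ± 0.15 (adjusted p = 0.625, 95% interval -0.51 to 0.14). Its second probe lay 1.94 above the log2 mid-parent. By the calls against each parent, Ptprg, Thumpd1 and Zfp874a were classed dominant and B6-like, Klk1b24 dominant and C3H-like, and Ifi44l and Trim12a partly dominant.

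**Figure D4:**
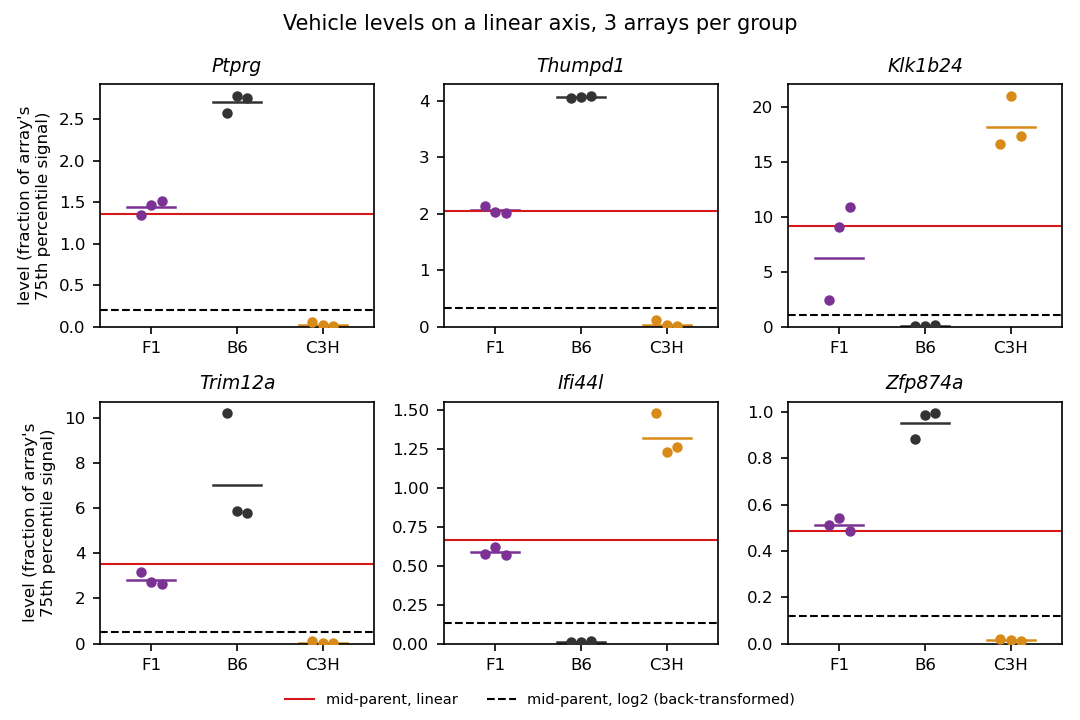
Linear level (fraction of the array's 75th percentile signal) of 6 genes called above the log2 mid-parent and not off the linear one, with a point per vehicle array and a bar at the back-transformed mean of the log2 levels for F1, B6 and C3H; the solid line is the linear mid-parent and the dashed line the log2 mid-parent. F1 lies near the solid line in 5 panels, and for Klk1b24 F1 replicate 1 lies far below the other F1 arrays.

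The direction of dominance differed between the scales in the same way. Of the 111 B6-like genes, 40 resembled the higher parent, of which 12 were also called on the linear scale, and 71 resembled the lower parent, of which all 71 were. Of the 178 C3H-like genes, 45 resembled the higher parent (17 also called on the linear scale) and 133 the lower parent (133 also called). The linear mid-parent is never below the log2 one, which moves calls in this direction. The B6-like class held 62 genes without F1 replicate 2 and 69 without C3H replicate 3, and the C3H-like class 81, 72 and 115 without F1 replicates 1, 2 and 3.

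Rab6b, a GTPase of Golgi traffic, lay farthest from the mid-parent among the named genes that resembled their lower parent. It read 0.61, -0.76 and -0.05 in F1, 3.47, 3.37 and 3.22 in B6 and 0.29, -0.91 and 0.19 in C3H. F1 and C3H overlapped and B6 lay apart, so that F1 was -1.67 ± 0.25 from the log2 mid-parent (adjusted p = 0.000385) and -2.55 ± 0.28 from the linear one (adjusted p = 3.26e-05). Sprr2f, a small proline-rich protein known as an estrogen-induced gene of the mouse uterus, resembled its higher parent. It read 0.08, 0.85 and -0.20 in F1, -3.08, -2.91 and -3.39 in B6 and 0.64, -0.07 and -0.43 in C3H. F1 was 10.4-fold above B6 (adjusted p = 4.51e-07) and 1.78 ± 0.29 above the log2 mid-parent (adjusted p = 0.000867), while its +1.05 from the linear one had an adjusted p of 0.0631.

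C1ql2, a secreted C1q-like protein, was B6-like at 1.02 ± 0.18 above the log2 mid-parent (adjusted p = 0.00159) and 0.31 above the linear one (adjusted p = 0.464). Gad1os, antisense to Gad1, and the homeobox gene Dbx2 had a parent that was not well above background, and neither kept the call after normexp with bright backgrounds reset (adjusted p = 0.057 and 0.0528). The olfactory receptor gene Olfr1271 was at least 4.47-fold brighter in F1 than in B6 and did not keep the call either (adjusted p = 0.351), nor without any single F1 array (0.0694 to 0.0887). Adh6a, an alcohol dehydrogenase, and Afm, a vitamin E-binding plasma protein made in liver, resembled the lower parent at -0.97 and -1.0. Both lost the call with quantile normalization (adjusted p = 0.0753 and 0.0705), with cyclic loess (0.115 and 0.119) and when the 9 vehicle arrays alone gave the spread (0.119 and 0.144). Adh6a also lost it without F1 replicate 3 (-0.68, adjusted p = 0.168), and Afm in 6 of the 9 analyses that left out an array (adjusted p of 0.0632 to 0.184 where lost). Afm and the liver marker sums given above were both highest in B6. In F1 and C3H Afm averaged -4.69 and -5.07, while the sums were 2.03 to 2.71 and 2.35 to 5.34. The part of those sums in the Afm result was not tested.

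Of the 6 named firm additive genes, which had the largest parental differences in that class, 4 encode Ly49 receptors of natural killer cells: Klra1, Klra10, Klra7 and Klra8. The others were the class I histocompatibility gene H2-Q8 and Trim61. Klra8 read -2.81, -2.46 and -2.17 in F1, 0.37, -0.08 and -0.15 in B6 and -4.88, -5.03 and -5.31 in C3H. The groups did not overlap, and F1 was 0.04 ± 0.15 from the log2 mid-parent (adjusted p = 0.952) but -1.56 ± 0.17 from the linear one (adjusted p = 3.19e-05). Klra7 averaged 0.309 in F1, 1.69 in B6 and 0.0287 in C3H on the linear scale, against a linear mid-parent of 0.862. All 6 lay below the linear mid-parent, by -1.77 to -1.13, and H2-Q8 was not called there (adjusted p = 0.0947). C3H was not well above background for Klra1, Klra10 and Trim61, and after normexp with bright backgrounds reset Klra1 and Klra10 were called below the log2 mid-parent too (-0.53, adjusted p = 0.00036, and -0.41, adjusted p = 0.022). Without B6 replicate 1, H2-Q8 lay 0.97 above it and was called (adjusted p = 0.00717). Members of the Ly49, kallikrein, histocompatibility and olfactory receptor families have near-identical copies, and a probe may read more than 1 of them.

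To place F1 between the parents without choosing genes on the vehicle arrays, 1755 genes were taken whose parents differed at least 2-fold at E2 24 h. With B6 at 0 and C3H at 1, the median position of F1 in vehicle was 0.46 on the log2 scale (quartiles 0.23 to 0.69, SD over the 3 F1 arrays 0.013) and 0.49 on the linear scale. For 756 genes higher in C3H at E2 24 h the median was 0.58 on the log2 scale and 0.45 on the linear scale, and for 999 genes higher in B6 there it was 0.37 and 0.53. The parents' order at E2 24 h need not hold in vehicle, so these medians are not read as nearness to the parent that was higher in vehicle. Genes chosen on the E2 2 h arrays gave 0.50 on the log2 scale (1607 genes).

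The distance in vehicle was then split by the parental fold at E2 24 h. In the 2 to 4-fold bin, the one with the most genes, F1 lay 0.05 from the log2 mid-parent and -0.06 from the linear one where C3H was higher (522 genes, 303 of them above the log2 mid-parent), and -0.25 and -0.38 where B6 was higher (746 genes, 258 above it). For these 746 genes the median parental difference in vehicle was -0.78 on the log2 scale. For genes that differed 4 to 16-fold, F1 lay 0.20 above the log2 mid-parent and -0.16 from the linear one where C3H was higher (207 genes), and 0.28 and -0.18 where B6 was higher (202 genes). For genes that differed 16-fold or more, the medians were 0.89 and -0.19 where C3H was higher (27 genes), and 1.14 and -0.24 where B6 was higher (51 genes). In this last bin 22 of 27 and 43 of 51 genes lay above the log2 mid-parent, 10 and 16 lay above the linear one, and 77.8% and 64.7% were nearer the linear one. The median distance from the log2 mid-parent was thus above 0 in both bins of wider difference, and below 0 in the 2 to 4-fold bin where B6 was higher.

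**Figure D5:**
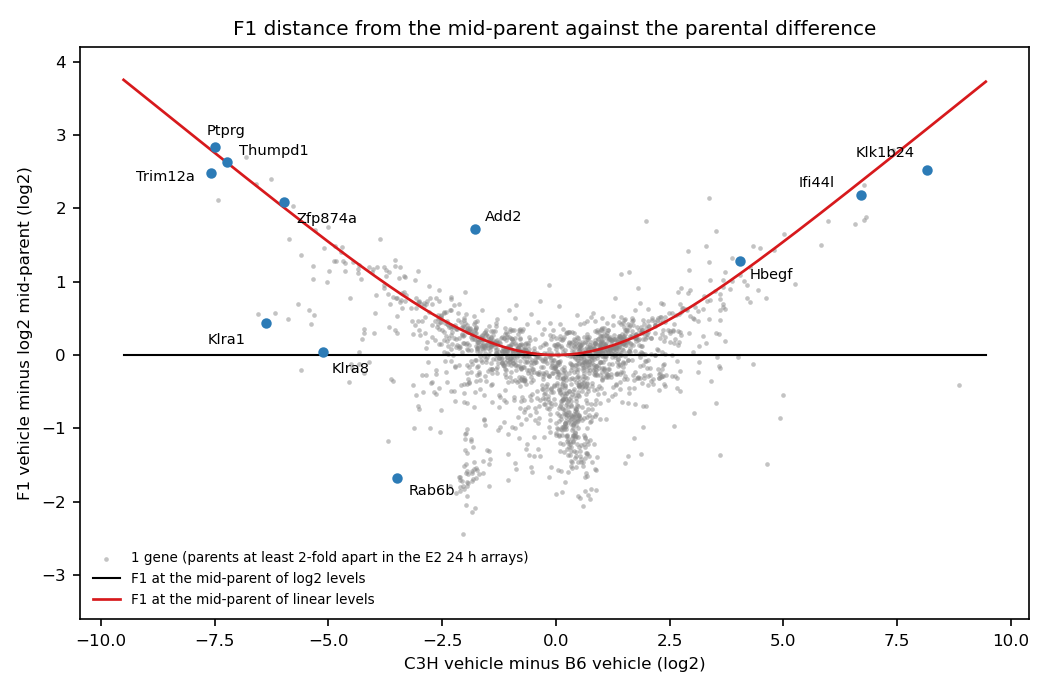
F1 minus the log2 mid-parent (log2, vertical axis) against C3H minus B6 (log2, horizontal axis) in vehicle for the 1755 genes, 1 point each; the straight line marks F1 at the log2 mid-parent and the curve F1 at the linear mid-parent. Many genes with wide parental differences lie near the curve, with Klra1 and Klra8 near the straight line, Add2 above both lines and Rab6b below them.

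Gene lists were set against the background of 1.44% called higher and 3.95% called lower among all genes, whose median was -0.01. Of 18 measured tissue kallikreins, serine proteases encoded in 1 cluster, 6 were higher and 2 lower than the log2 mid-parent (median +0.16), and 0 were higher than the linear one. The 6 were Klk1b24, Klk1b3, Klk1b26, Klk1b21, Klk1 and Klk1b27, at +1.5 to +2.53. Klk1b3 read -0.38, 1.66 and 1.85 in F1, -4.21, -4.76 and -4.25 in B6 and 2.43, 2.88 and 2.48 in C3H. As for the other 5, F1 replicate 1 lay about 2 log2 units below the other F1 arrays. The counts were 8 higher and 1 lower without that array, 2 and 0 without F1 replicate 2, and 2 and 1 without F1 replicate 3. Klk10 and Klk11 were the lower members (-0.61 and -0.72), and Klk11 (adjusted p = 0.0485) kept the call in 3 of 21 alternatives.

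Natural killer and T cell receptors with granzymes had 0 of 25 higher and 4 lower (median -0.22): Klra3, Klrb1a, Klrc1 and Klrd1, at -0.81 to -0.61. Against the linear mid-parent 11 were lower, and 17 of the 25 were lower in C3H than in B6. Klrd1, the CD94 subunit of inhibitory receptors, read -0.64, -0.94 and -0.71 in F1, 0.68, -0.08 and -0.15 in B6 and -0.49, -0.46 and -0.32 in C3H, with B6 replicate 1 the highest. The list of interferon-induced genes had 0 of 35 higher and 4 lower (median -0.67): the oligoadenylate synthetase family members Oasl1, Oas2 and Oas3, and the antiviral GTPase Mx1. It does not hold Ifi44l, described above, which was called higher (+2.18, limma adjusted p = 3.05e-09). Mx1 read -5.75, -5.54 and -5.69 in F1, -2.86, -4.94 and -5.09 in B6 and -5.05, -4.79 and -4.60 in C3H, and B6 replicate 1 was again the highest. With quantile normalization, cyclic loess and the normexp variant 2, 2 and 1 interferon-induced genes were lower, and 2, 1 and 5 of the natural killer list. Mx1 (adjusted p = 0.0493) kept the call in 5 of 21 alternatives, Klra3 (0.0412) in 7 and Klrc1 (0.0372) in 9. Without B6 replicate 1, 11 interferon-induced genes were lower and the median was -0.32, and without B6 replicate 2 or 3, 10 and 14 were lower. Without F1 replicate 1 or 3, 0 were, and without C3H replicate 1 or 3, 2 were. The natural killer list had 1, 0 and 2 lower without F1 replicates 1, 2 and 3, and 2 without each C3H array. Its median was -0.09 without B6 replicate 1, -0.43 without B6 replicate 2 and -0.38 without F1 replicate 3. B6 replicate 1 also held the highest sums of T and NK cell and macrophage markers, whose part in these lists was not tested.

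Cell division genes had 0 of 38 higher and 8 lower (median -0.37). They were Ccna2, Mki67, Top2a, Kif20a, Nusap1, Tpx2, Mcm10 and Uhrf1. Ccna2, Kif20a and Tpx2 kept the call in 5 of 21 alternatives each, and Nusap1 in 7. Mki67, the proliferation marker Ki-67, read 0.12, 0.01 and -0.29 in F1, 0.78, 0.37 and 0.08 in B6 and 0.73, 0.68 and 0.78 in C3H. F1 overlapped B6 and lay below C3H, at -0.63 ± 0.16 (adjusted p = 0.0242). The number lower was 4 with quantile normalization, 5 with cyclic loess and 2 after normexp with bright backgrounds reset. It was 16 without B6 replicate 3, 0 without F1 replicate 3, and 2 to 5 without each of the other arrays.

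Of 6 measured liver markers 5 were lower in F1 (median -1.68): the plasma protein genes Alb, Apoa1, Apoa2, Fgb and Ahsg. Alb read -0.12, -0.10 and 0.26 in F1, 3.88, 1.96 and 2.44 in B6 and 0.87, -0.10 and 1.22 in C3H. B6 was highest on every array and F1 met the lowest C3H array. Without F1 replicates 1 and 2 the number lower was 0 and 1, and without B6 replicate 1 it was 5. Adipocyte markers, of which 7 of 8 were lower in C3H than in B6, had none called off the mid-parent (median +1.37, and +0.74 without F1 replicate 1). Their summed level was 122, 28.4 and 36.4 in F1, 68.8, 77.4 and 30.5 in B6 and 2.63, 2.55 and 33.2 in C3H, so arrays of the same group differed widely.

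Imprinted genes, which are read from the copy of a single parent, had 4 of 36 higher and 1 lower (median +0.03). The noncoding RNAs H19 (+0.45) and Meg3 (+0.36), the growth-restraining gene Phlda2 (+0.51, adjusted p = 0.0463) and Rasgrf1 (+0.43), a Ras exchange factor, were higher, and Magel2 was lower (-0.83, adjusted p = 0.00625). Of 21 alternatives, Phlda2 kept its call in 6, Meg3 in 8, Rasgrf1 in 10 and H19 in 16. H19 read -1.20, -1.19 and -1.17 in F1, -2.17, -1.76 and -1.90 in B6 and -1.36, -1.41 and -1.20 in C3H. The F1 arrays lay above B6 and at the top of the C3H range, 0.45 ± 0.11 above the log2 mid-parent (adjusted p = 0.0166). The higher members numbered 0, 1 and 1 without F1 replicates 1, 2 and 3, 1 without B6 replicate 1, B6 replicate 2, C3H replicate 2 or C3H replicate 3, and 2 without B6 replicate 3, and the normexp variant called 1 higher and 0 lower.

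Estrogen-responsive genes had 2 of 33 higher and 0 lower (median +0.04), Sprr2f and Hbegf. Hbegf, a ligand of the epidermal growth factor receptor, read 3.42, 3.55 and 3.48 in F1, -0.02, 0.26 and 0.29 in B6 and 4.22, 4.26 and 4.16 in C3H. The groups did not overlap, and F1 was 1.29 ± 0.07 above the log2 mid-parent (adjusted p = 7.03e-10) and +0.18 from the linear one (adjusted p = 0.228). Histocompatibility genes had 1 of 29 higher and 0 lower (median -0.36). The higher one was H2-Ea, at +1.09 from the log2 mid-parent and -0.02 from the linear one, with B6 not well above background, so that the first distance has no exact size. After normexp with bright backgrounds reset it was 0.11 and not called (adjusted p = 0.581). Of 32 lipid genes, 2 were higher, the acyltransferases of triglyceride synthesis Dgat2 and Dgat1, of which Dgat1 (+0.21, adjusted p = 0.0407) kept the call in 7 of 21 alternatives. Dgat2 read 4.62, 4.64 and 4.56 in F1, 4.19, 4.34 and 4.30 in B6 and 4.37, 4.37 and 4.50 in C3H, and its F1 arrays were above all others (+0.26, adjusted p = 0.00625). No member was called among 45 respiratory chain subunits, 39 ribosomal proteins, 35 heat shock and folding genes, 20 clock genes, 45 extracellular matrix genes and 40 complement and chemokine genes, whose medians were -0.01, +0.02, +0.09, -0.01, -0.05 and -0.42. The complement and chemokine median was -0.19 without B6 replicate 1, the array with the most T and NK cell and macrophage marker signal, and 1, 2 and 1 of its genes were lower without B6 replicates 1, 2 and 3.

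The E2 arrays are different samples and can be set beside the vehicle result. Of the 19 genes above both parents in vehicle, F1 was also above the mid-parent in 18 at E2 2 h (9 called) and in 18 at E2 24 h (3 called), where 3.19% and 1.52% of all genes were called higher. Of the 327 genes below both, F1 was below the mid-parent in 321 at 2 h (198 called) and in 266 at 24 h (41 called), where 8.48% and 1.34% of all genes were called lower. The median distance of the 327 was -0.89 in vehicle, -0.63 at 2 h and -0.30 at 24 h, and that of the 19 was 0.37, 0.27 and 0.15. Both sets were chosen by their distances on the vehicle arrays. Smaller medians at E2 therefore follow in part from that choice and are not read as an effect of E2. Spots well above background made up 72.9% to 76.3% on F1 arrays at 2 h against 76.7% to 78.2% in B6 and 77.1% to 79.9% in C3H, and 73.3% to 75.3% on F1 arrays at 24 h against 73.8% to 78.3% in B6 and 75.7% to 77.1% in C3H. The F1 arrays at E2 lay on slides that held no B6 or C3H arrays, so slide and strain cannot be told apart there either. The share of all genes on the same side of the mid-parent at E2 is not given here. The part of background and of slide in the E2 values was not tested.

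The difference between vehicle and E2 was itself tested. F1 minus mid-parent differed between vehicle and E2 2 h in 18 genes (0.0823%) and between vehicle and E2 24 h in 11 (0.0503%). Hbegf passed both tests, with a distance of 1.29 in vehicle, -0.02 at 2 h and 0.61 at 24 h (adjusted p = 6.59e-07 and 0.00702). Add2 had 1.72 in vehicle and 0.28 at 2 h (adjusted p = 0.0225). Ifi44l had 2.18 in vehicle, 2.94 at 2 h and 3.48 at 24 h, and differed from vehicle at 24 h (adjusted p = 0.00702). The count against 2 h was 10 without F1 replicate 2, F1 replicate 3 or C3H replicate 1 and 8 without C3H replicate 2, and that against 24 h was 6 without F1 replicate 2 or C3H replicate 2 and 4 without F1 replicate 3.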

How the data were processed

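RNA of 27 uterus samples was hybridised to 1-colour Agilent arrays, and the deposited processed signal is an intensity that Agilent Feature Extraction 9.5 made on each array alone, per the file headers and the submitters' processing notes: background-subtracted and detrended, with low values replaced by surrogates. The deposited value table held the same intensity on all 27 arrays. Levels were log2 of that signal minus log2 of each array's 75th percentile. Control spots and outliers were left out, spots of 1 probe averaged, and each of 21866 genes represented by its brightest probe (7487 genes had more than 1). Probes were named through accessions or symbols in RefSeq's gene table (assembly GRCm38.p6) where they matched, 32719 of 41174, and kept the file's name otherwise.

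limma 3.58.1 in R 4.3.3 was fitted to all 27 arrays as 9 groups, with Benjamini-Hochberg adjustment over all genes. The linear mid-parent is the mean of the parents' back-transformed log2 means, tested by the delta method on the same fit. The firm additive class needs the 95% interval of F1 minus mid-parent to lie within 0.25 of the parental difference on either side. A group not well above background on any array gives only a bound. Named genes had known symbols and were the 8 farthest above and the 8 farthest below both parents with F1 arrays beyond all parent arrays, 6 per dominant direction, 6 firm additive and 6 with a log2 call only, each by the largest difference, and list members by distance. The members, lists and rules were chosen with earlier results of these data known. The scripts were tested on simulated data.

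The alternatives were other scalings, background corrections, filters, blocks and thresholds, and leaving out each vehicle array. Cyclic loess, the normexp variant with bright local backgrounds reset, and the repeats of the lists were added after seeing the data. Under normexp as planned, a few spots lay far below their local background (lowest difference -63998.6 on F1 replicate 2), and the 10th percentile of log2 signal on 3 vehicle arrays was 8.77 to 9.94, against 5.94 to 6.01 once those backgrounds were reset. Both normexp corrections added a fixed offset to every signal, which shrinks the log2 differences of dim probes. Replicate numbers did not pair the samples.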

Additional observations from a re-analysis of the deposited data

Results flagged for a closer look

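The distance of F1 from the log2 mid-parent in vehicle differed from that at E2 2 h, by limma's test of the difference (adjusted p under 0.05), in 13 genes with a known symbol. The vehicle minus 2 h difference was positive for Olfr339 (1.59), Add2 (1.44), H2ap (1.36), Hbegf (1.3), Dbx2 (1.10), Mast1 (0.72), Camk2a (0.66) and Slc25a35 (0.51). It was negative for Snx10 (-1.77), Otud7a (-1.49), Wnt9a (-1.25), Krt76 (-1.24) and Socs2 (-0.64). Wnt9a, a secreted signalling protein, was at -0.03 in vehicle and 1.22 at 2 h. Socs2, a feedback inhibitor of cytokine signalling, was below both parents in vehicle (-0.56) and at 0.08 at 2 h. Snx10, a sorting nexin of endosomes, was at -1.60 in vehicle and 0.17 at 2 h.

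Against E2 24 h the difference was found in 10 such genes. It was positive for Tmod4 (0.69) and Hbegf (0.68). It was negative for Ces1g (-2.65), Cyp2c39 (-2.35), Jhy (-1.68), Car5a (-1.48), Chia1 (-1.43), Ifi44l (-1.3), Omp (-1.16) and Ninj2 (-0.93). Ces1g, Cyp2c39 and Car5a, which encode a carboxylesterase, a cytochrome P450 and a mitochondrial carbonic anhydrase, were not well above background on any F1 vehicle array, as was also the case for Krt76 and Otud7a above. Jhy was at 0.80 in vehicle, 0.32 at 2 h and 2.48 at 24 h.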

How the results depend on the processing

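Counts are given in the order higher and lower. Normexp as planned, whose scale failed on 3 vehicle arrays, left almost no calls: F1 minus log2 mid-parent 1 and 2, linear 0 and 2, C3H minus B6 378 and 348, F1 minus B6 71 and 32, F1 minus C3H 64 and 14, above both 0, below both 0, B6-like 1, C3H-like 2, partly dominant 0, additive 714, firm 25, and differences from E2 1 and 0. Under it the signs turned for Pnliprp1 (0.06), Tmem63c (0.17), Apol10a (0.17), Trat1 (0.09), Olfr2 (0.20), Olfr1349 (0.11), Rp1l1 (0.18), Olfr948 (0.23), Klra3 (0.03), Magel2 (0.19), Oas3 (0.07) and Klk11 (0.23). With bright backgrounds reset the counts were 174 and 186, linear 40 and 210, F1 lower than C3H 1112, below both 51, B6-like 34, C3H-like 87, differences from E2 8 and 5, median position 0.48, and Klra1 (-0.53) and Klra10 (-0.41) turned sign. Without scaling they were 168 and 1335, linear 18 and 1492, F1 higher than B6 533 and than C3H 699, above both 6, below both 501, and 8 differences from E2 2 h. Quantile normalization gave 490 lower, 541 on the linear scale, 44 above both, 191 below both and 19 differences from E2 24 h. Cyclic loess gave 542 and 602 lower, 47 above both and 8 differences from 2 h, and median centring 142 higher on the linear scale, 33 above both and 180 firm. Restricting to probes well above background on all vehicle arrays gave 550 and 609 lower, 210 below both and 6 differences from 24 h, and turned Ptprg to -0.14, since its second probe was then used. The 9 vehicle arrays alone gave 574 below both, 183 B6-like and 85 C3H-like. Without a filter on dim probes there were 4 differences from 24 h, and with slide as a random block 7. At an adjusted p under 0.01 the counts were 146 and 289, linear 11 and 335, C3H higher 1855, F1 minus B6 629 and 792, F1 minus C3H 711 and 927, above both 4, below both 98, B6-like 40, C3H-like 58, partly dominant 85, and differences from E2 6 and 4. Asking also for 1.5-fold gave 142 higher, 17 on the linear scale, C3H minus B6 1241 and 1435, F1 minus B6 445 and 1043, F1 minus C3H 558 and 1170, above both 7, B6-like 53, partly dominant 87 and additive 2205. The median position was 0.50 for genes chosen at E2 2 h and 0.51 for genes chosen in vehicle. The cause of these shifts was not tested beyond what each alternative fixes by construction.

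Same-numbered samples deviated together at r of -0.26 to 0.34, so the numbers do not pair them. With the replicate block the counts were 332 and 863, and 11 and 6 genes differed from E2 2 h and 24 h. Leaving out each vehicle array in turn gave 168 to 300 higher and 326 to 876 lower, 28 to 94 and 330 to 985 on the linear scale, F1 lower than C3H in 1243 to 2242, above both 9 to 27, below both 154 to 281, B6-like 62 to 107, C3H-like 72 to 231, partly dominant 96 to 148, firm additive 186 to 321, 8 to 20 and 4 to 15 differences from E2, and a median position of 0.44 to 0.47. Of 98 genes followed, 73 of them called, the slide block kept the side of the threshold in 96, the replicate block in 94, quantile normalization in 86 and cyclic loess in 85. It was kept in 68, 64 and 68 without F1 replicates 1, 2 and 3, and in 82 to 91 without a parent array. The 9 vehicle arrays alone kept it in 67, normexp with bright backgrounds reset in 65 and normexp as planned in 27. The number of arrays limits what could be called, and dim probes give bounds only.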

Other observations

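Among genes that separated the parents widely, C3H replicate 1 read higher than the other C3H vehicle arrays. In 27 genes at least 16-fold higher in B6 than in C3H at E2 24 h, with a B6 vehicle level above 0.25 on the linear scale (a limit chosen after the values were seen), the C3H level was expressed as a percentage of the B6 level. Its median was 3.55% on C3H replicate 1, 2.29% on replicate 2 and 1.76% on replicate 3, and its lowest value was 0.899%, 0.422% and 0.173%. C3H replicate 1 was the highest of the 3 in 18 of the 27 genes. In the 13 genes chosen the same way with C3H as the high parent, the B6 medians were 5.19%, 5.16% and 5.41%, and the lowest values 0.237%, 0.223% and 0.182%. Ptprg, Thumpd1 and Trim12a belong to the genes read this way, and without C3H replicate 1 their distances from the log2 mid-parent were 3.26, 3.14 and 2.86, against 2.84, 2.64 and 2.48 with it.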
